A study of Mus musculus with 12 samples.

Results

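The genes of glycolysis, of lactate production and exchange, and of the entry of pyruvate into mitochondria were examined in OPCs (oligodendrocyte precursor cells) and in neurons of the mouse cortex. The 34 genes were chosen by symbol for their role from the 30165 genes of the OPC table and the 17918 genes of the neuron table, and each of the 34 was found in both. They comprise the glucose transporter Slc2a3, the glycolytic enzymes from the hexokinases Hk1 and Hk2 to the pyruvate kinase Pkm, the regulators Pfkfb2 and Pfkfb3, the lactate dehydrogenases Ldha and Ldhb, the monocarboxylate transporters Slc16a1, Slc16a3 and Slc16a7 with their chaperone Bsg, the mitochondrial pyruvate carrier Mpc1 and Mpc2, members of the pyruvate dehydrogenase complex and its kinases, and Pygb and Gys1 of glycogen turnover. Control mice (ctl, genotype WT in the labels) were compared with double knockout mice (dKO), in which the NG2-CreERT2 driver deletes floxed parts of the calcium channel genes Cacna1c (Cav1.2) and Cacna1d (Cav1.3) in NG2-expressing cells, which include pericytes as well as OPCs. Deletion was started by tamoxifen at a dose of 100 mg/kg, given on postnatal days 7 and 8. The age at which the cells were taken is not given for the RNA. Magnetic beads for CD140, NG2 and O4 served to isolate OPCs. Neurons were what remained after removing cells bound by beads for ACSA-2, CD31, CD11b and O4. Each group had 3 libraries, 12 in all, each pooled from the cells of 2 mice, so that 6 mice stand behind a group.

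Glycolysis splits glucose into pyruvate in the cytosol, with the hexokinase, phosphofructokinase and pyruvate kinase steps as its main points of control. Pyruvate is either reduced to lactate, which leaves or enters cells through monocarboxylate transporters, or carried into mitochondria and oxidised by pyruvate dehydrogenase, which the pyruvate dehydrogenase kinases switch off by phosphorylation. In brain, astrocytes and oligodendrocytes are known for releasing lactate, endothelial cells for carrying it across vessel walls by Slc16a1, and neurons for oxidising pyruvate.

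The labelled cell types were checked against marker genes first, as summed TPM (a level per length, scaled to the same total in each library). For OPCs the length was the deposited gene length, and for neurons the deposited TPM of transcripts were summed per gene. The OPC libraries held 1512 to 2969 TPM of 11 OPC markers and 31641 to 52682 TPM of 10 oligodendrocyte markers. The O4 beads also bind cells that have begun to differentiate. These libraries also held 30667 to 68311 TPM of 6 choroid plexus and ependymal markers, most of it Ttr (mean of 43291 TPM in ctl and 45793 TPM in dKO), and 1082 to 3412 TPM of 10 endothelial markers. The groups overlapped in both, while all 10 endothelial markers had a higher fitted level in dKO, 0 of them at an unadjusted p under 0.05. The neuron libraries held 538 to 969 TPM of 13 neuron markers, against 7904 to 20557 TPM of these endothelial markers and 52836 to 269874 TPM of 5 erythroid markers. Both kinds of library thus held RNA of several cell types and are called by their labels only. Fitted marker levels differed between the groups. Of all genes tested, 6.27% were higher and 5.27% lower in OPCs at an unadjusted p under 0.05 (edgeR), and 4.96% and 4.04% in neurons. In OPC libraries, all 10 astrocyte markers had a higher fitted level in dKO, 8 of them at an unadjusted p under 0.05, with a sum of 1236 to 1785 TPM in ctl and 1775 to 2812 TPM in dKO, highest in dKO replicate 2. All 12 microglia markers were higher at this threshold, with sums of 465 to 581 TPM in ctl and 582 to 1899 TPM in dKO. Oligodendrocyte markers were lower for 8 of 10, 3 of them at this threshold. In neuron libraries, all 10 endothelial markers had a lower fitted level in dKO, 4 of them at an unadjusted p under 0.05, and the sums of 16052 to 20557 TPM in ctl and 7904 to 14957 TPM in dKO did not overlap. The sums of the neuron markers themselves did not overlap either, with 538 to 725 TPM in ctl and 751 to 969 TPM in dKO. Of these 13 markers, 11 had a higher fitted level, and 1 of them had an unadjusted p under 0.05, near the share of all genes. Lower fitted levels in dKO were also found for all 12 microglia, all 10 oligodendrocyte and 8 of 10 astrocyte markers, with overlapping sums, and 0, 0 and 3 of them were at this threshold. Choroid plexus and ependymal markers summed to 12357 to 26679 TPM in ctl and 25219 to 67221 TPM in dKO, highest in dKO replicate 1. None of these marker lists had a gene listed at 0 in every library of its table. In bulk samples, fewer cells of a type and less RNA per cell cannot be told apart. The targeted Cacna1c had 373 to 439 normalized counts in ctl and 252 to 337 in dKO OPC libraries, and 62.1 to 111 and 57.3 to 165 in neuron libraries. Cacna1d had 191 to 255 in ctl and 92.8 to 232 in dKO OPC libraries, and 10.7 to 30.5 and 25.6 to 54.9 in neuron libraries. Library sizes were 14935963 to 19812274 counts for OPCs and 15052892 to 16344601 for neurons. OPC dKO replicate 2 alone carried the female transcript Xist (13595 normalized counts, at most 20.2 in the other OPC libraries) and no count of the Y-linked Ddx3y, so results are also given without it.

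In OPC libraries, most members had a somewhat higher fitted level in dKO, but 0 passed an adjusted p of 0.05 with edgeR. The smallest p values were those of the phosphofructokinase Pfkl, the lactate dehydrogenase Ldha and the enolase Eno1. Astrocyte and microglia markers also had higher fitted levels in these dKO libraries, and the part of these cells was not tested. In neuron libraries, 6 of the 7 members whose groups did not overlap were lower in dKO, with the smallest p for the glycolytic activator Pfkfb3 and the lactate transporter Slc16a1. Pfkp was higher. Counts were normalized to a common library size (normalized counts), and genes with a mean of at least 10 were tested, which all 34 members passed in both tables. In OPCs, 27 of the 34 had a higher fitted level in dKO and 7 a lower one, where 50.8% of all genes tested had a higher one. The members' median log2 fold change was 0.20, beside 0.01 for the 17364 genes tested. With edgeR's quasi-likelihood test, 0 members passed an adjusted p of 0.05, a background of 0.00576% of all genes tested, and 7 higher and 1 lower member had an unadjusted p under 0.05, against 6.27% and 5.27% of all genes tested in these directions. DESeq2 called 1 member, Pfkl, at an adjusted p under 0.05, with 1.69% of all genes called. The 3 dKO libraries lay above the 3 ctl libraries for 6 members (Slc2a3, Pfkl, Tpi1, Eno1, Ldha and Pdk4), against 7.41% of all genes tested, and below them for 1 (Pfkfb2), against 9.55%. Without dKO replicate 2, 4 members were higher (Hk2, Pfkl, Pfkm and Ldha) and 2 lower (Pfkfb2 and Mpc1) at an unadjusted p under 0.05, against 8.08% and 5.21% of all genes in that fit, and the median was 0.15. Without ctl replicate 2, 2 members were higher (Pfkl and Ldha) and 0 lower, against 3.61% and 2.73%.

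In neuron libraries, 22 of the 34 members had a higher and 12 a lower fitted level in dKO, where 51.1% of all genes tested had a higher one. The members' median log2 fold change was 0.11, beside 0.01 for the 14352 genes tested. No member (0) and 0% of all genes passed an adjusted p of 0.05 in edgeR's quasi-likelihood test. At an unadjusted p under 0.05, 1 member was higher (Ldhb) and 2 were lower (Pfkfb3 and Slc16a1), against 4.96% and 4.04% of all genes tested. DESeq2 called 1 member, Pfkfb3, at an adjusted p under 0.05, with 0.614% of all genes called. The groups did not overlap for 6 members that were lower in dKO (Pfkfb3, Ldha, Slc16a1, Slc16a3, Bsg and Pdk4), against 7.82% of all genes tested, and for 1 that was higher (Pfkp), against 7.5%. Without dKO replicate 1, the library with most choroid plexus and erythroid marker RNA, 5 members were lower (Slc2a3, Pfkfb3, Slc16a1, Bsg and Pdk4) and 0 higher at an unadjusted p under 0.05, against 4.35% and 3.94% of all genes in that fit, and the median was -0.01.

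**Figure D1:**
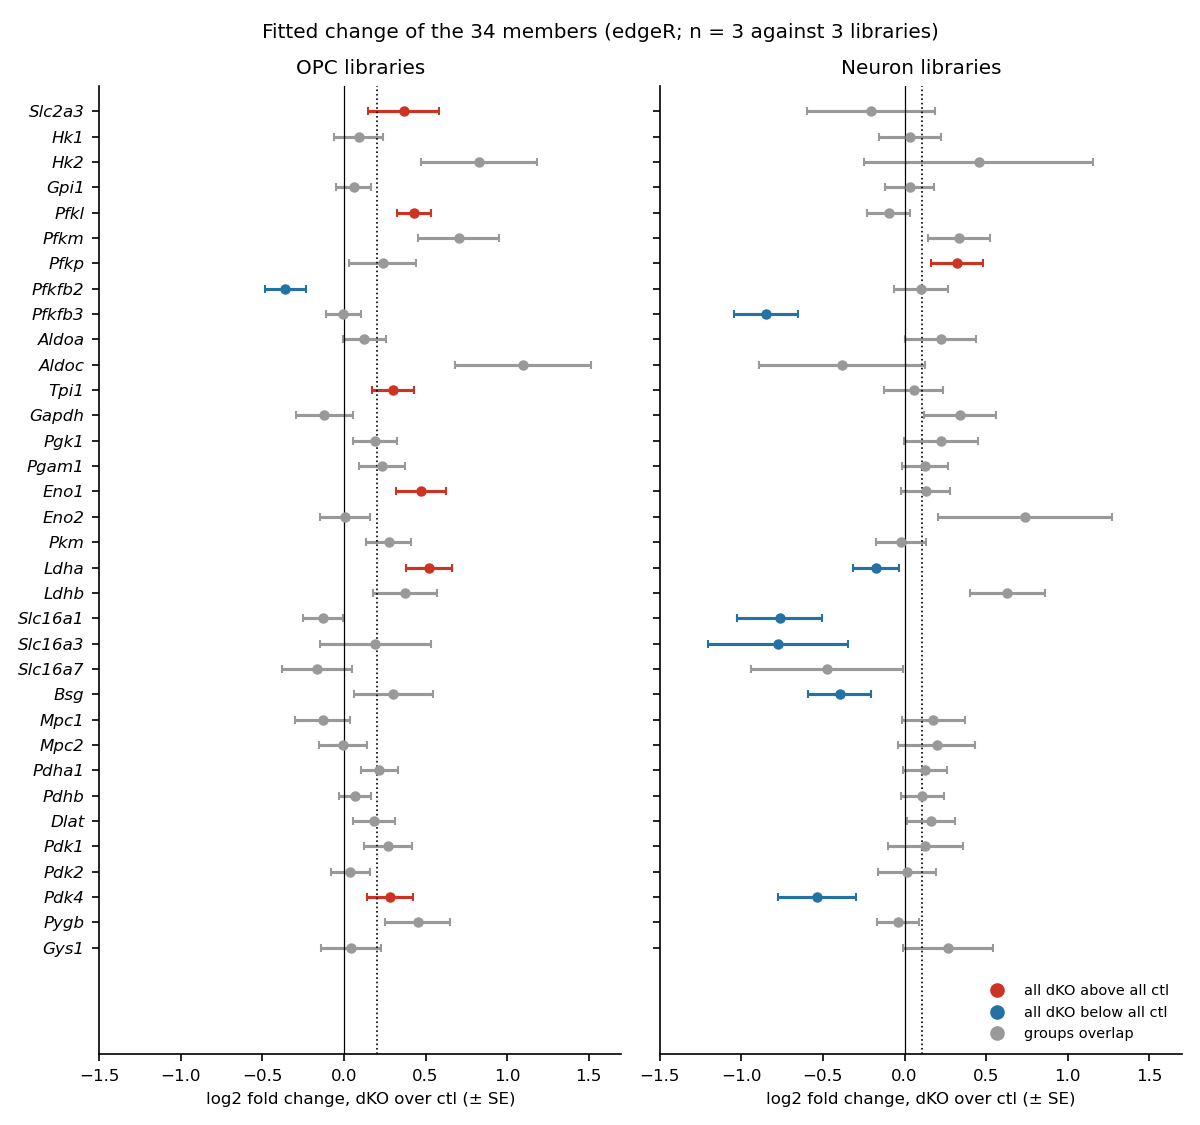
Fitted log2 fold change of dKO over ctl (x axis, bars ± standard error, edgeR) for each of the 34 members (y axis, in the order of the pathway) in OPC libraries (left) and neuron libraries (right), with the members' median dotted at 0.20 and 0.11. Red points (6 in OPCs, 1 in neurons) have all 3 dKO libraries above all 3 ctl libraries and blue points (1 in OPCs, 6 in neurons) have them below.

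Levels per length were compared within a table only, because the tables were counted in different ways. The order in OPC libraries also depends on the deposited gene lengths. For example, Mpc2 (7344 bases) had 790 reads in ctl replicate 1 and Mpc1 (2082 bases) 557, but 19.3 and 48.1 TPM. In ctl OPC libraries, Bsg, the surface glycoprotein that brings monocarboxylate transporters to the membrane, was highest with 2216 ± 515 TPM (SD, n = 3), followed by the aldolase Aldoa with 641 ± 5.79 TPM (SD, n = 3) and Ldhb with 417 ± 75.6 TPM (SD, n = 3). In ctl neuron libraries, Bsg was again highest with 12935 ± 1929 TPM (SD, n = 3), then Slc16a1 with 1202 ± 182 TPM (SD, n = 3) and Gapdh with 752 ± 177 TPM (SD, n = 3). Hk2, the inducible hexokinase, was the lowest member in both, with 2.30 ± 0.425 and 0.600 ± 0.514 TPM (SD, n = 3 each). Of the 33 neighbouring pairs in this order, the ctl libraries of 8 pairs did not overlap in the OPC table and likewise 8 in the neuron table, and those of the other 25 did. Bsg stood clear of the second member in both tables, and Slc16a1 of the third in neuron libraries. Gapdh, the glyceraldehyde-3-phosphate dehydrogenase, was at 9.62 ± 0.109 TPM (SD, n = 3) in ctl OPC libraries, rank 30 of 34, with only 156 to 224 reads per library, against a rank of 3 in neuron libraries. Such a low count for Gapdh is uncertain, and its cause was not tested. The Gapdh copies that were looked at, Gapdh-ps14 and Gapdh-ps15, held at most 2 reads. Mpc1 has a near copy, Mpc1-ps, which held 424 to 769 reads, so its OPC level is uncertain too, while the copies of Pgk1, Pgam1, Ldha, Ldhb, Tpi1 and Gpi1 that were looked at held at most 23 reads. Aldoa is on a second row of the OPC table with 14 to 35 reads, which was left out.

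**Figure D2:**
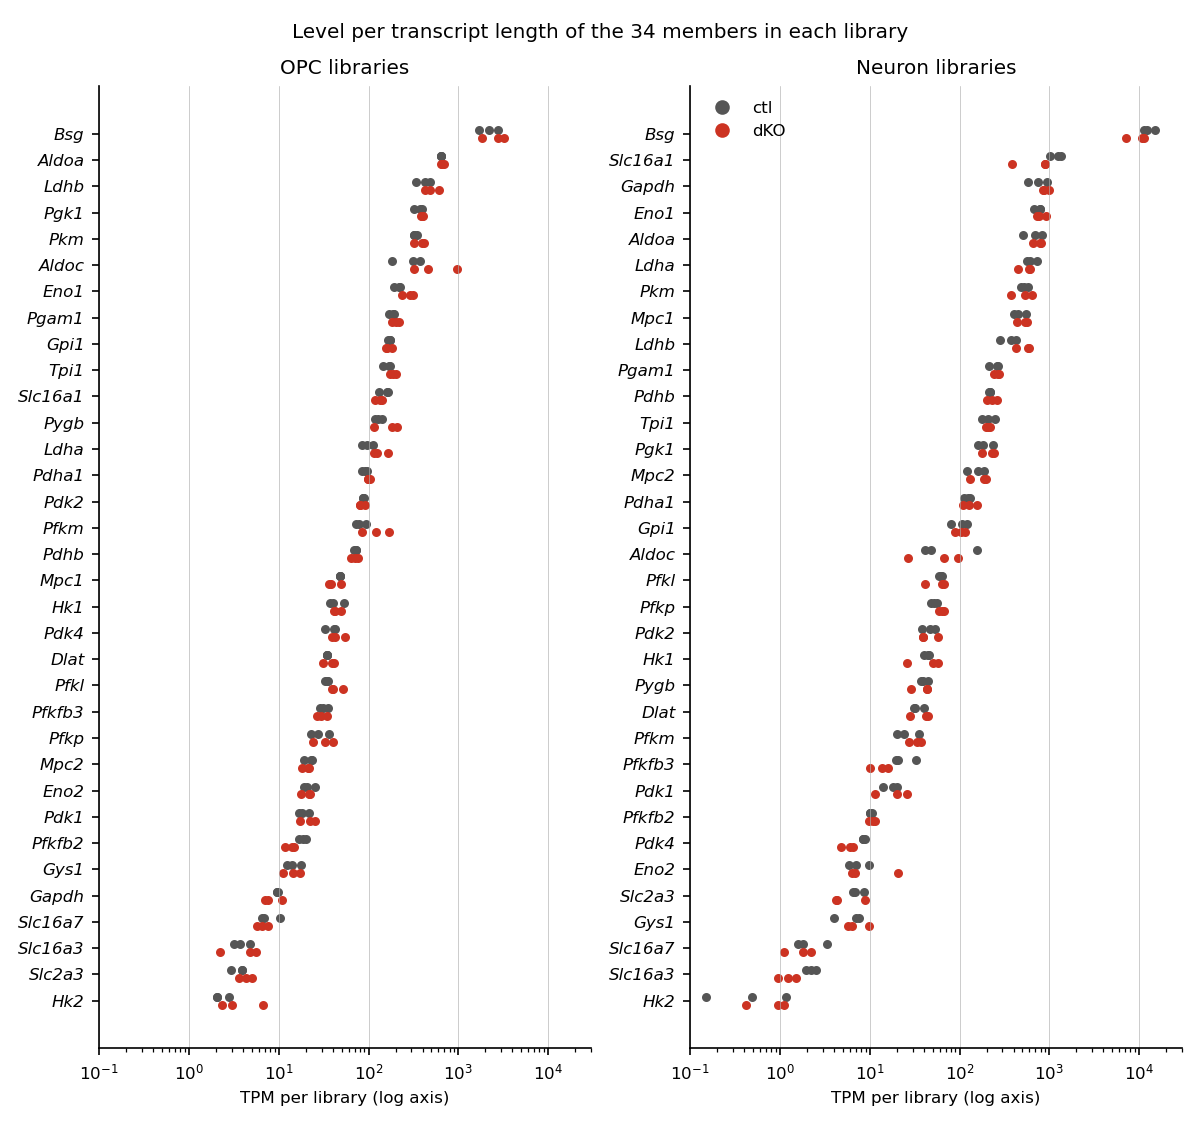
TPM of each of the 34 members in each library (x axis, log scale, 1 point per library, ctl grey and dKO red), ordered on the y axis by the mean of the ctl libraries of that table, for OPC (left) and neuron libraries (right). Bsg leads both panels with 1711 to 3259 TPM and 7192 to 15103 TPM, and Hk2 closes both with 2.03 to 6.62 TPM and 0.150 to 1.16 TPM.

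The first steps of the pathway take up glucose and phosphorylate it. Slc2a3, the high-affinity glucose transporter known from neurons, had normalized counts of 104, 135 and 135 (ctl) and 138, 197 and 145 (dKO) in OPCs. The groups did not overlap (log2 fold change 0.37, standard error 0.22, unadjusted p = 0.128, adjusted p = 0.548, edgeR), though they did on the TPM scale. In neuron libraries it had normalized counts of 291, 240.2 and 249.7 (ctl) and 392, 143 and 142 (dKO). There dKO replicate 1 was the highest and the other dKO libraries the lowest of all, and the log2 fold change of -0.21 became -0.87 (unadjusted p = 0.0045 in edgeR) without dKO replicate 1. Hk1, the hexokinase bound to mitochondria in brain, had a log2 fold change of 0.09 (95% interval -0.25 to 0.44) in OPCs and 0.03 (95% interval -0.40 to 0.47) in neurons. Hk2 had normalized counts of 60.4, 57.2 and 79.4 (ctl) and 95.8, 73.5 and 182 (dKO) in OPCs. Its dKO mean was 1.78 times the ctl level (log2 fold change 0.83, standard error 0.36, unadjusted p = 0.0466, adjusted p = 0.432, edgeR), but dKO replicate 2 lay within the ctl range and dKO replicate 3 was far above all others, and without that library the log2 fold change was 0.36 (unadjusted p = 0.250, edgeR). Replicate 3 also had the highest microglia marker sum (1899 TPM), and log2 Hk2 per microglia marker TPM, a measure chosen after the values had been seen, was -7.80 ± 0.09 (ctl) against -8.30 ± 0.41 (dKO, SD, n = 3 each), with all dKO libraries below ctl. The part of microglia in the Hk2 difference was not tested. In neuron libraries Hk2 had only 6.81 to 55.9 normalized counts, and its log2 fold change was 0.45 (95% interval -1.15 to 2.06). Gpi1, which converts glucose 6-phosphate to fructose 6-phosphate, had log2 fold changes of 0.06 (95% interval -0.19 to 0.31) in OPCs and 0.03 (95% interval -0.31 to 0.38) in neurons.

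Phosphofructokinase commits sugar to glycolysis, and Pfkl, its liver type subunit, had the smallest p of the members in OPCs. Pfkl (ENSMUSG00000020277, chromosome 10 from 77822781 to 77845917) had normalized counts of 1158, 1029 and 1101 (ctl) and 1406, 1410.0 and 1614 (dKO) in OPCs. Coordinates are as deposited: the labels name the build mm39 and the methods GRCm38, and the positions differ from those that GENCODE M21 gives on GRCm38. All dKO libraries lay above all ctl libraries, at 1096 ± 64.5 (ctl) against 1477 ± 119 (dKO, SD, n = 3 each), or 1.35 times the ctl level (log2 fold change 0.43, standard error 0.11, unadjusted p = 0.00315, adjusted p = 0.287, edgeR). With DESeq2 it had an adjusted p of 0.0486. Pfkm, the muscle type subunit, had normalized counts of 1281, 1150.4 and 1474 (ctl) and 1474, 3034 and 1844 (dKO). Only dKO replicates 2 and 3 lay above the ctl range, replicate 2 by far the most (log2 fold change 0.70, standard error 0.25, unadjusted p = 0.0200, adjusted p = 0.357, edgeR), and without that library the log2 fold change was 0.35 (unadjusted p = 0.0475, edgeR). Replicate 2 also had the highest astrocyte marker sum (2812 TPM), and log2 Pfkm per astrocyte marker TPM was -4.15 ± 0.16 (ctl) against -4.18 ± 0.20 (dKO, SD, n = 3 each), again a measure chosen afterwards. For Pfkl the log2 ratios to the same markers were -5.39 ± 0.29 (ctl) against -5.63 ± 0.46 (dKO, SD, n = 3 each), and those to microglia markers -3.89 ± 0.18 (ctl) against -4.70 ± 0.72 (dKO, SD, n = 3 each), with overlapping groups in both. The part of these cells in either result was not tested. Pfkp, the platelet type subunit, had a log2 fold change of 0.24 (95% interval -0.23 to 0.70) in OPCs. In neuron libraries it had normalized counts of 1564, 1504 and 1528 (ctl) and 2309, 1599 and 1842 (dKO), and all dKO libraries lay above ctl (log2 fold change 0.32, standard error 0.16, unadjusted p = 0.0746, adjusted p = 0.576, edgeR). With each library left out in turn, its log2 fold change was 0.17 to 0.44. Pfkl and Pfkm had log2 fold changes of -0.10 (95% interval -0.40 to 0.21) and 0.33 (95% interval -0.10 to 0.76) there.

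Fructose 2,6-bisphosphate is the strongest activator of phosphofructokinase, and the bifunctional enzymes Pfkfb2 and Pfkfb3 set its level. Pfkfb3, the form with the highest kinase activity, was lower in dKO neuron libraries. Pfkfb3 (ENSMUSG00000026773, chromosome 2 from 11476244 to 11558888) had normalized counts of 1357, 838 and 985 (ctl) and 551, 651 and 562 (dKO) in neurons. The groups did not overlap, at 1060.0 ± 267 (ctl) against 588 ± 55.2 (dKO, SD, n = 3 each), and dKO was 0.555 times the ctl level (log2 fold change -0.85, standard error 0.20, unadjusted p = 0.00211, adjusted p = 0.521, edgeR). DESeq2 gave it an adjusted p of 0.0319. Endothelial markers were lower in the same libraries, and log2 Pfkfb3 per endothelial marker TPM was -9.56 ± 0.22 (ctl) against -9.86 ± 0.21 (dKO, SD, n = 3 each), so the groups overlapped on this scale, which was chosen after the values had been seen. The part of endothelial cells in the lower count was not tested. In OPC libraries the groups of Pfkfb3 overlapped, with 1059.5, 1274 and 1133 (ctl) and 1171, 1085 and 1200.3 (dKO) and a log2 fold change of -0.00 (95% interval -0.25 to 0.24). Pfkfb2, the heart type enzyme, was the 1 member of the 7 with a lower fitted level in dKO OPC libraries whose groups did not overlap, with 655, 681 and 579 (ctl) and 447, 546 and 499 (dKO). All dKO libraries were below all ctl libraries (log2 fold change -0.36, standard error 0.13, unadjusted p = 0.0195, adjusted p = 0.355, edgeR). Oligodendrocyte markers summed to 40879.5 to 52682 TPM in ctl and 31641 to 45901 TPM in dKO, and log2 Pfkfb2 per oligodendrocyte marker TPM overlapped between the groups, at -11.30 ± 0.17 (ctl) against -11.45 ± 0.45 (dKO, SD, n = 3 each), while the part of these cells was not tested. In neuron libraries Pfkfb2 had a log2 fold change of 0.10 (95% interval -0.28 to 0.48).

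**Figure D3:**
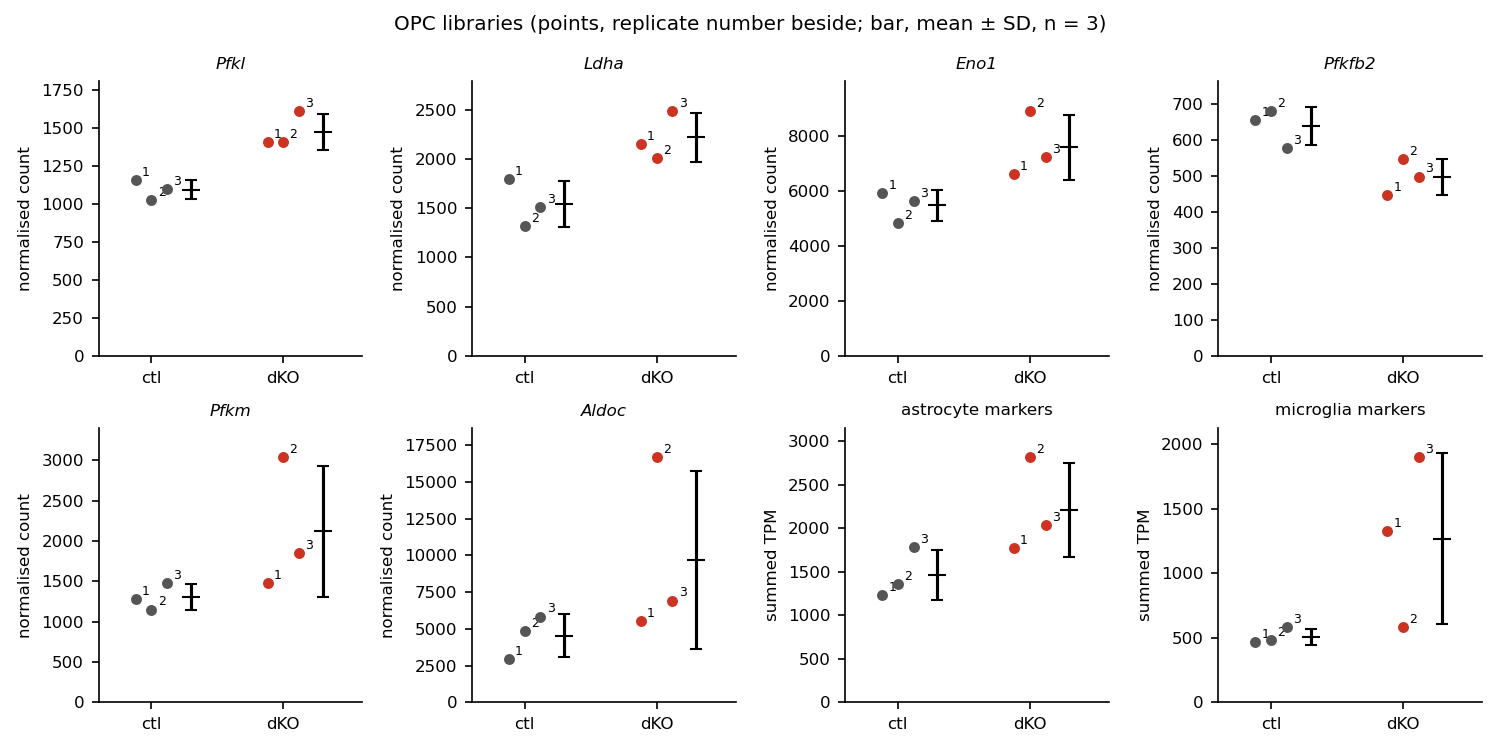
Values of 6 members (normalized counts) and of astrocyte and microglia markers (summed TPM) in the OPC libraries, with 1 point per library, its replicate number beside it, and the mean ± SD (n = 3) of each group; y axes start at 0. The groups of Pfkl, Ldha, Eno1 and Pfkfb2 do not overlap, whereas Pfkm and Aldoc are highest in dKO replicate 2 (3034 and 16665 normalized counts), the library with the highest astrocyte sum (2812 TPM).

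The lower part of glycolysis, from aldolase to pyruvate kinase, is where ATP and NADH are made, and 8 of its 9 members had a higher fitted level in dKO OPC libraries, against 50.8% of all genes tested, with a median log2 fold change of 0.23. Eno1, the widely expressed enolase, had the smallest p among them. Eno1 (ENSMUSG00000063524, chromosome 4 from 150321178 to 150333336) had normalized counts of 5939, 4849 and 5640.1 (ctl) and 6613, 8920.1 and 7239 (dKO) in OPCs. The groups did not overlap, and dKO was 1.39 times ctl (log2 fold change 0.47, standard error 0.15, unadjusted p = 0.0144, adjusted p = 0.329, edgeR). Log2 Eno1 per astrocyte marker TPM was -2.77 ± 0.29 (ctl) against -2.97 ± 0.19 (dKO, SD, n = 3 each), overlapping between the groups, and the part of astrocytes was not tested. Tpi1, triosephosphate isomerase, had normalized counts of 2256, 1865 and 2276 (ctl) and 2539, 2957 and 2380.3 (dKO), also without overlap (log2 fold change 0.30, standard error 0.13, unadjusted p = 0.0491, adjusted p = 0.433, edgeR). Without dKO replicate 2 the log2 fold changes of Eno1 and Tpi1 were 0.34 and 0.21 (unadjusted p = 0.0563 and 0.163, edgeR). Aldoc, the aldolase known as an astrocyte enzyme, had normalized counts of 2930.1, 4850.5 and 5834 (ctl) and 5558, 16665 and 6930.2 (dKO). Here dKO replicate 1 lay below ctl replicate 3 and dKO replicate 2 exceeded all others (log2 fold change 1.10, standard error 0.42, unadjusted p = 0.0282, adjusted p = 0.382, edgeR; DESeq2 unadjusted p = 0.0619), and without that library the log2 fold change was 0.46 (unadjusted p = 0.118, edgeR). Log2 Aldoc per astrocyte marker TPM was -2.37 ± 0.33 (ctl) against -2.05 ± 0.46 (dKO, SD, n = 3 each), with overlapping groups, while the part of astrocytes was not tested. Aldoa, the main aldolase, had normalized counts of 9177, 8789 and 8833 (ctl) and 10602, 9827 and 8796 (dKO), with overlapping groups (log2 fold change 0.13, standard error 0.13, unadjusted p = 0.361, adjusted p = 0.747, edgeR). Pgk1, Pgam1 and Pkm had log2 fold changes of 0.19 (95% interval -0.12 to 0.49), 0.23 (95% interval -0.09 to 0.56) and 0.27 (95% interval -0.04 to 0.59). Eno2, the enolase of mature neurons, had 0.01 (95% interval -0.35 to 0.36), and Gapdh, with its uncertain count, had -0.12 (95% interval -0.52 to 0.28).

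In neuron libraries, 0 of these 9 members had an unadjusted p under 0.05 (edgeR; 0 with DESeq2), against 4.96% higher and 4.04% lower of all genes tested, and the groups of all 9 overlapped, against 7.5% and 7.82% of all genes without overlap, so that 0 of 9 is near the background. Their log2 fold changes ran from -0.38 for Aldoc to 0.74 for Eno2. They were 0.22 (95% interval -0.27 to 0.71) for Aldoa, 0.06 (95% interval -0.36 to 0.47) for Tpi1, 0.22 (95% interval -0.29 to 0.74) for Pgk1 and 0.13 (95% interval -0.20 to 0.45) for Pgam1. Those of Eno1 and Pkm were 0.13 (95% interval -0.22 to 0.48) and -0.02 (95% interval -0.37 to 0.33). Eno2 had normalized counts of 220.4, 166 and 149 (ctl) and 601, 139 and 154 (dKO), where dKO replicate 1 alone was high, and its log2 fold change was -0.29 without that library. Aldoc had normalized counts of 3503, 951 and 1205 (ctl) and 779.8, 1477 and 2080.1 (dKO), where ctl replicate 1 was far above the other ctl libraries, and its log2 fold change was 0.43 without that library. Gapdh had normalized counts of 9237, 7631 and 6539 (ctl) and 12901, 8183 and 8539.7 (dKO), with overlapping groups (log2 fold change 0.34, standard error 0.22, unadjusted p = 0.160, adjusted p = 0.685, edgeR).

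Pkm makes M1 or M2 pyruvate kinase by use of either of a pair of alternative exons, and the neuron table gives both transcripts. The exons are shown because they are what tells the forms apart: each has 167 bases, of which 103 are the same at the same position (61.7%), and the capitals mark the 64 that differ. They lie on the + strand of chromosome 9 in GRCm38, at chr9:59675029-59675195 (M1) and chr9:59675568-59675734 (M2), and were read from GENCODE M21 transcripts.
M1: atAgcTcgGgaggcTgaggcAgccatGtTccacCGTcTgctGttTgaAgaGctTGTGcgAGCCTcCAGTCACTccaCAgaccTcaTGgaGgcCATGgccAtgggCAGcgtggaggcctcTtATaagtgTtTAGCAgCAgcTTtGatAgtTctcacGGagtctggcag
M2: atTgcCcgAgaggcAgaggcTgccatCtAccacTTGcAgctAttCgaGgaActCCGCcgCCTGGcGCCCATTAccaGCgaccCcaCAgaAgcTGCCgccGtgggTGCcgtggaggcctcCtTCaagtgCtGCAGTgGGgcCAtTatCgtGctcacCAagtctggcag
The M2 transcript was the main one in every neuron library. The share of M1 in the sum of M1 and M2 TPM was 15.1%, 19.0% and 16.6% in ctl and 23.1%, 16.9% and 17.6% in dKO, at 16.9% ± 1.97 (SD, n = 3) and 19.2% ± 3.39 (SD, n = 3). The groups overlapped, and the exact two-sided permutation test gave p = 0.400, where 0.1 is the smallest that 3 against 3 allow. M1 is known as the form of mature neurons and M2 as that of many other cells. These shares were chosen after the values had been seen, and reads of the shared exons were divided between the transcripts by estimation.

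Lactate dehydrogenase interconverts pyruvate and lactate, and Ldha, whose subunit favours lactate formation, lay in opposite directions in the tables. Ldha (ENSMUSG00000063229, chromosome 7 from 46490899 to 46505051) had normalized counts of 1794, 1322 and 1513 (ctl) and 2153, 2012 and 2487 (dKO) in OPCs. All dKO libraries were above all ctl libraries, at 1.44 times the ctl level (log2 fold change 0.52, standard error 0.14, unadjusted p = 0.00562, adjusted p = 0.296, edgeR; DESeq2 adjusted p = 0.0708). In neuron libraries it had normalized counts of 9248, 7866 and 7984 (ctl) and 7462, 7528 and 7269 (dKO). All dKO libraries were below ctl, but by little (log2 fold change -0.17, standard error 0.14, unadjusted p = 0.250, adjusted p = 0.735, edgeR), and on the TPM scale the groups overlapped, with 557 to 733 TPM in ctl and 453 to 611 TPM in dKO. The difference between cell types was not tested. Log2 Ldha per microglia marker TPM in OPC libraries was -2.39 ± 0.29 (ctl) against -3.11 ± 0.66 (dKO, SD, n = 3 each), and per astrocyte marker TPM -3.90 ± 0.38 (ctl) against -4.04 ± 0.52 (dKO, SD, n = 3 each), with overlapping groups in both, and the part of these cells was not tested. Log2 Ldha per endothelial marker TPM in neuron libraries was -4.82 ± 0.10 (ctl) against -4.46 ± 0.29 (dKO, SD, n = 3 each), with all dKO libraries above ctl, so its direction turned on that scale. Ldhb, whose subunit favours the use of lactate, had normalized counts of 3741, 2508 and 3168 (ctl) and 3559, 5135 and 3534 (dKO) in OPCs (log2 fold change 0.38, standard error 0.20, unadjusted p = 0.0896, adjusted p = 0.502, edgeR). In neuron libraries it had normalized counts of 4159, 3725 and 3077 (ctl) and 7357, 4012 and 5601 (dKO). Its dKO libraries were spread, with replicate 2 below ctl replicate 1 (log2 fold change 0.63, standard error 0.23, unadjusted p = 0.0241, adjusted p = 0.521, edgeR). Without dKO replicate 1 the log2 fold change was 0.40 (unadjusted p = 0.0628, edgeR). Choroid plexus and ependymal markers had the same order among the dKO libraries (67221, 25219 and 42217 TPM), log2 Ldhb per TPM of these markers was -5.81 ± 0.30 (ctl) against -6.30 ± 0.50 (dKO, SD, n = 3 each), with overlapping groups, and the part of these cells was not tested.

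Monocarboxylate transporters carry lactate, pyruvate and ketone bodies together with protons, and all 4 members of this group had a lower fitted level in dKO neuron libraries, with a median log2 fold change of -0.62 and no overlap between the groups for 3 of them. Of all genes tested, 51.1% had a higher fitted level, and 7.82% were lower without overlap. Slc16a1 (MCT1), in brain known from endothelial cells and oligodendrocytes, was the most abundant transporter. Slc16a1 (ENSMUSG00000032902, chromosome 3 from 104545984 to 104565778) had normalized counts of 47225, 39535 and 59133 (ctl) and 19303, 33435 and 33188 (dKO) in neurons. The groups did not overlap, at 48631 ± 9874 (ctl) against 28642 ± 8089 (dKO, SD, n = 3 each), and dKO was 0.589 times ctl (log2 fold change -0.76, standard error 0.26, unadjusted p = 0.0179, adjusted p = 0.521, edgeR). The lowest was dKO replicate 1, and without it the log2 fold change was -0.55 (unadjusted p = 0.0173, edgeR), while without ctl replicate 3 it was -0.60 (unadjusted p = 0.0743). Bsg, its chaperone, had normalized counts of 160517, 134895 and 137828 (ctl) and 99842, 111775 and 117165 (dKO) (log2 fold change -0.40, standard error 0.19, unadjusted p = 0.0696, adjusted p = 0.568, edgeR; DESeq2 unadjusted p = 0.00513, adjusted p = 0.203). Slc16a3 (MCT4), known from cells that export lactate, had normalized counts of 43.7, 37.0 and 55.7 (ctl) and 25.5, 29.3 and 24.6 (dKO), low but without overlap (log2 fold change -0.78, standard error 0.43, unadjusted p = 0.105, adjusted p = 0.618, edgeR), and Slc16a7 (MCT2), the high-affinity form known from neurons, had 35.0 to 122 normalized counts with overlapping groups and a log2 fold change of -0.47 (95% interval -1.54 to 0.59).

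Endothelial markers were lower in the same neuron libraries, so the transporters were also set against them, as a description chosen after the values had been seen. Log2 Slc16a1 per endothelial marker TPM was -3.89 ± 0.23 (ctl) against -4.15 ± 0.18 (dKO, SD, n = 3 each). The same ratio was -0.46 ± 0.09 (ctl) against -0.33 ± 0.17 (dKO, SD, n = 3 each) for Bsg, and -12.98 ± 0.24 (ctl) against -13.27 ± 0.25 (dKO, SD, n = 3 each) for Slc16a3. The groups overlapped for each of the 3, and the difference for Bsg was of the other sign, while the part of endothelial cells was not tested. In OPC libraries the groups of all 4 overlapped. Slc16a1 had normalized counts of 2809, 3385 and 3463 (ctl) and 3156, 2785 and 2879.9 (dKO) with a log2 fold change of -0.13 (95% interval -0.41 to 0.15). Bsg had normalized counts of 24206, 14647 and 19012 (ctl) and 26537, 17648 and 27199.8 (dKO) (log2 fold change 0.30, standard error 0.24, unadjusted p = 0.244, adjusted p = 0.654, edgeR). Slc16a7 and Slc16a3 had log2 fold changes of -0.16 (95% interval -0.66 to 0.33) and 0.19 (95% interval -0.59 to 0.97).

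**Figure D4:**
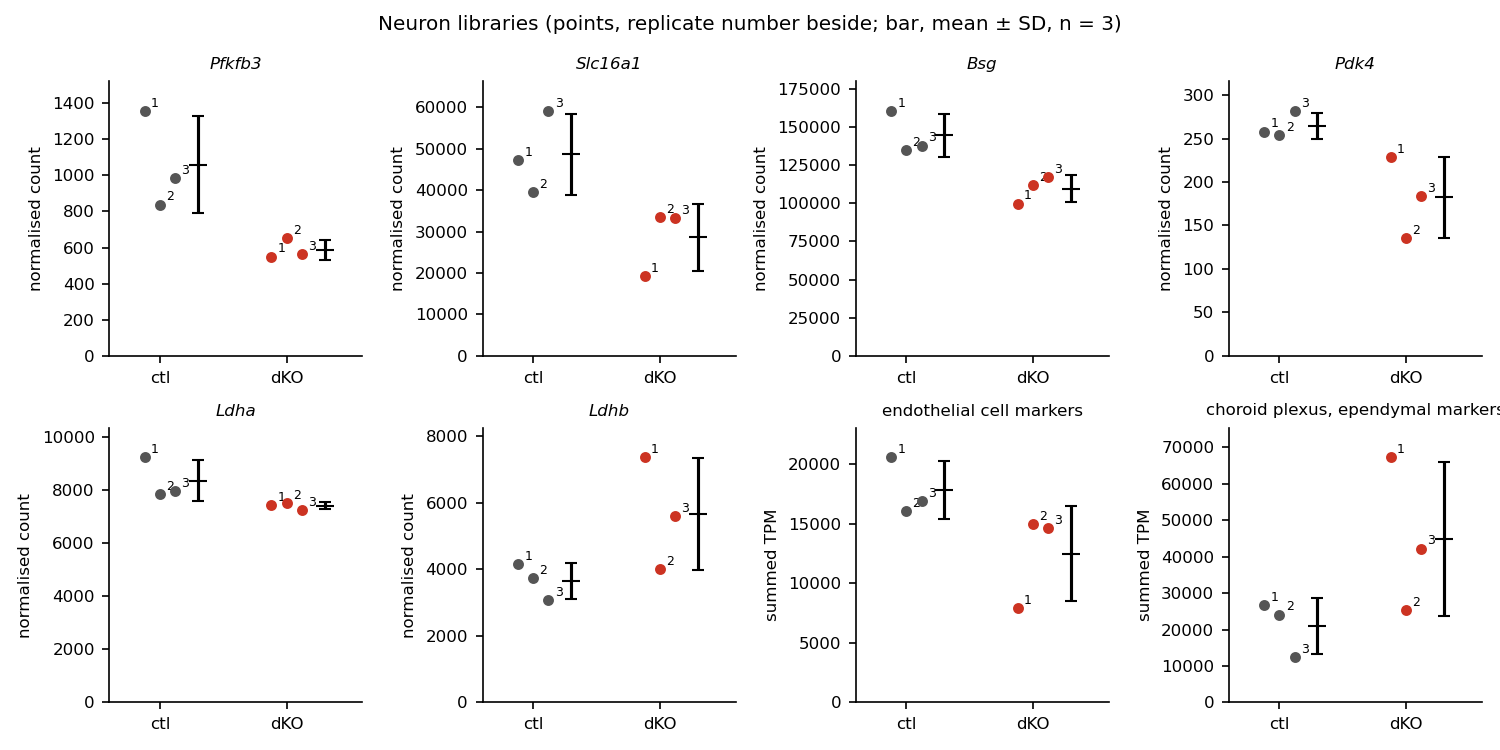
Values of 6 members (normalized counts) and of endothelial and choroid plexus and ependymal markers (summed TPM) in the neuron libraries, with 1 point per library, its replicate number beside it, and the mean ± SD (n = 3) of each group; y axes start at 0. Pfkfb3, Slc16a1, Bsg, Pdk4 and Ldha lie lower in all dKO libraries, as does the endothelial sum (16052 to 20557 TPM in ctl, 7904 to 14957 TPM in dKO), and Ldhb is highest in dKO replicate 1.

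Promoter sequences are shown for Ldha, Slc16a1 and Pfkfb3, 3 members on which the results turn and whose promoters hold a motif of hypoxia targets. RefSeq windows of 250 bases before to 50 after the start site (GRCm38.p6) were listed for 31 of the 34 members, and the motif searched was ACGTG on both strands, the core of the hypoxia response element, where capitals mark each match and the palindrome CACGTG, also an E-box, counts as a pair of overlapping matches. The motif was found in the first listed window of 14 of these 31 members (45.2%) and of 19.7% of the 27025 genes with a window. A match is only a match of letters. Ldha (chr7:46845554-46845853, + strand, the first of 2 windows) held 5 matches, Slc16a1 (chr3:104638414-104638713, + strand) 3 and Pfkfb3 (chr2:11553880-11554179, - strand, also the first of 2) 1.
Ldha: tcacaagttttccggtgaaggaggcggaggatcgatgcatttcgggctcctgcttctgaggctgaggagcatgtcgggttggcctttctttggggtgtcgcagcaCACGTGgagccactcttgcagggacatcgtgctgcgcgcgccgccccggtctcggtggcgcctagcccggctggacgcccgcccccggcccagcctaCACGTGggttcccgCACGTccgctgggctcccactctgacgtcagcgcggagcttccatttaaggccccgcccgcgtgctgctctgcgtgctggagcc
Slc16a1: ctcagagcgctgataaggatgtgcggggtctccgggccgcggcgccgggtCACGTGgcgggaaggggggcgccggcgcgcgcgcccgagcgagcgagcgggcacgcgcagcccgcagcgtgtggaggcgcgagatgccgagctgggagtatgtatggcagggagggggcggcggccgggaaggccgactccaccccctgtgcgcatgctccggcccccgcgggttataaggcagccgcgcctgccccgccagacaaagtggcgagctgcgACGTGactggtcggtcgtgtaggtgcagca
Pfkfb3: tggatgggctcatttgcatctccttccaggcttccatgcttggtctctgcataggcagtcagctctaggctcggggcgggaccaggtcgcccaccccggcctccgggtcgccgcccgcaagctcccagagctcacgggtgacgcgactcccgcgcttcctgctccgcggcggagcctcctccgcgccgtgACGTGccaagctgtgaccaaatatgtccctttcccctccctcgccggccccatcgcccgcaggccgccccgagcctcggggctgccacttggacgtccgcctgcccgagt
Of these 3 genes, Ldha was higher in dKO OPC libraries while the groups of Slc16a1 and Pfkfb3 overlapped there, and all 3 had lower normalized counts in dKO neuron libraries. Of the other members higher in dKO OPC libraries at an unadjusted p under 0.05 (edgeR), Pfkl, Eno1 and Tpi1 had no ACGTG in their first window. Pfkm, Hk2 and Aldoc had 3, 2 and 1 matches there.

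Pyruvate enters mitochondria through the carrier made of Mpc1 and Mpc2. Mpc1 had log2 fold changes of -0.13 (95% interval -0.51 to 0.25) in OPCs and 0.18 (95% interval -0.27 to 0.62) in neurons, and Mpc2 of -0.00 (95% interval -0.34 to 0.33) and 0.20 (95% interval -0.34 to 0.73). Pdha1 and Pdhb, subunits of the first enzyme of the pyruvate dehydrogenase complex, and Dlat, its acetyltransferase, act next on pyruvate. In OPCs their log2 fold changes were 0.22 (95% interval -0.04 to 0.48), 0.07 (95% interval -0.15 to 0.29) and 0.18 (95% interval -0.11 to 0.48), and in neurons 0.13 (95% interval -0.18 to 0.43), 0.11 (95% interval -0.19 to 0.41) and 0.16 (95% interval -0.17 to 0.50). The groups of these 3 overlapped in both tables, as those of most genes did.

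The pyruvate dehydrogenase kinases hold pyruvate back from oxidation. Pdk4, the form induced by fasting and fatty acids, had normalized counts of 725, 538 and 699 (ctl) and 779, 726 and 885 (dKO) in OPCs, with all dKO libraries above ctl, though dKO replicate 2 exceeded ctl replicate 1 by less than 1 count (log2 fold change 0.28, standard error 0.14, unadjusted p = 0.0827, adjusted p = 0.493, edgeR). On the TPM scale these groups overlapped, with 32.5 to 42.4 TPM in ctl and 38.8 to 54.8 TPM in dKO. In neuron libraries it had normalized counts of 258, 254 and 282 (ctl) and 228, 135 and 184 (dKO), with all dKO libraries below ctl (log2 fold change -0.53, standard error 0.24, unadjusted p = 0.0539, adjusted p = 0.557, edgeR; DESeq2 unadjusted p = 0.0464). Log2 Pdk4 per endothelial marker TPM overlapped between the groups, at -11.02 ± 0.15 (ctl) against -11.05 ± 0.63 (dKO, SD, n = 3 each), and the part of endothelial cells was not tested. Pdk1, a hypoxia target, had log2 fold changes of 0.27 (95% interval -0.07 to 0.61) in OPCs and 0.13 (95% interval -0.40 to 0.66) in neurons, and Pdk2, the widespread form, of 0.04 (95% interval -0.23 to 0.31) and 0.02 (95% interval -0.39 to 0.42). The change of Pdk4 in OPCs against that in neurons was not tested.

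Glycogen is the store from which brain cells can feed glycolysis. Pygb, the brain glycogen phosphorylase, had normalized counts of 2949, 2708 and 3275 (ctl) and 2952, 5253 and 4013 (dKO) in OPCs. Its dKO replicate 1 lay within the ctl range and replicate 2 was highest (log2 fold change 0.45, standard error 0.20, unadjusted p = 0.0518, adjusted p = 0.439, edgeR; DESeq2 unadjusted p = 0.0391), and without replicate 2 the log2 fold change was 0.23 (unadjusted p = 0.207, edgeR). Log2 Pygb per astrocyte marker TPM was -3.48 ± 0.18 (ctl) against -3.73 ± 0.22 (dKO, SD, n = 3 each), with overlapping groups, while the part of astrocytes was not tested. In neuron libraries Pygb had -0.04 (95% interval -0.33 to 0.25). Gys1, the glycogen synthase outside liver, had 0.04 (95% interval -0.38 to 0.47) in OPCs and 0.27 (95% interval -0.36 to 0.89) in neurons.

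Ratios of isozymes within a library do not depend on its total, but they do depend on its mix of cells, whose part was not tested. In OPCs their size also depends on the deposited gene lengths, which cancel in dKO against ctl. Per table, 8 ratios were compared by exact two-sided permutation tests, which cannot go below p = 0.1 with 3 libraries against 3. The ratio of Eno2 to Eno1 TPM was 0.111, 0.0997 and 0.0940 (ctl) and 0.0767, 0.0716 and 0.0742 (dKO) in OPCs, without overlap (log2 difference -0.45, exact permutation p = 0.1, adjusted over the 8 ratios p = 0.8). The groups of Eno2 itself overlapped in these libraries, and Eno1 was higher in dKO. The ratio of Ldhb to Ldha was 0.587, 0.618 and 0.504 (ctl) and 1.29, 0.697 and 1.01 (dKO) in neurons, without overlap (log2 difference 0.77, exact permutation p = 0.1, adjusted p = 0.8). In OPC libraries it ran from 3.00 to 5.38, so Ldhb was the more abundant subunit gene there, and the groups overlapped. Hk1 exceeded Hk2 in every library, with ratios of 7.43 to 25.9 in OPCs and 39.5 to 295 in neurons, and Slc16a1 exceeded Slc16a7. Aldoc per Aldoa was 0.285 to 1.51 in OPCs and 0.0338 to 0.188 in neurons. The TPM of Pfkm exceeded that of Pfkl in every OPC library (2.09 to 4.30), with gene lengths of 3340 and 6675 bases. Their ctl counts were closer, at 966 to 1464 for Pfkm and 864 to 1323 for Pfkl. In neuron libraries this ratio was 0.339 to 0.663, and it was not compared with that in OPCs. The groups of the 14 other ratios overlapped.

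**Figure D5:**
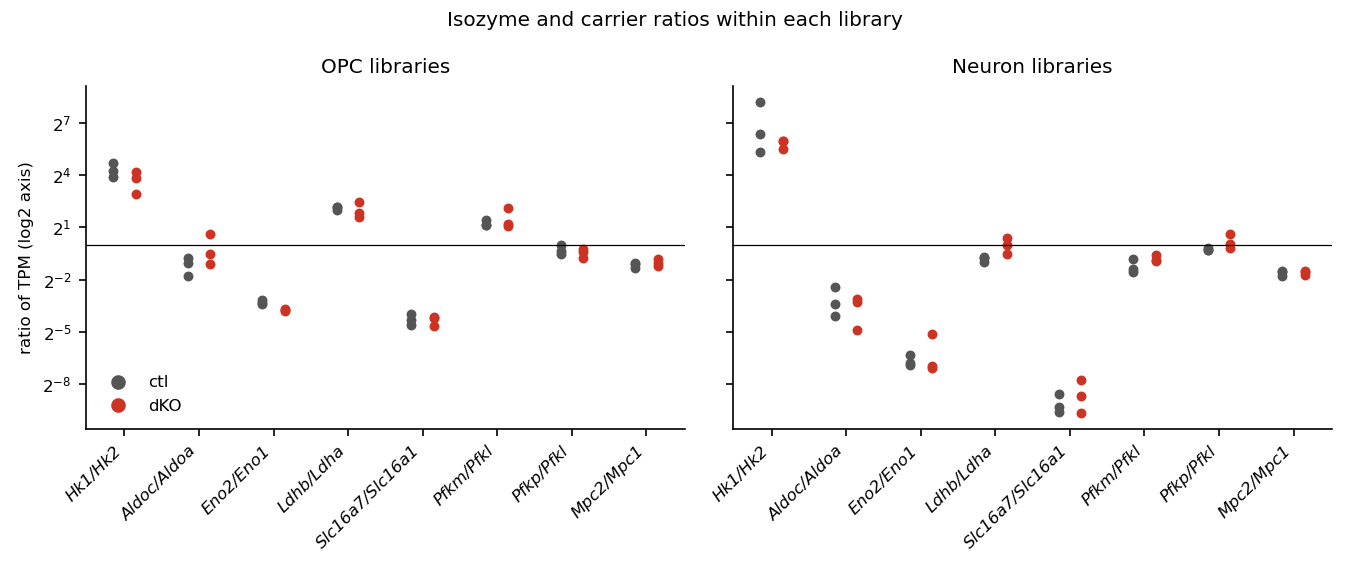
Ratio of the TPM of gene pairs (x axis) within each library (y axis, log2 scale, 1 point per library, ctl grey and dKO red), for OPC (left) and neuron libraries (right), with a line at equal levels. The groups are apart for Eno2/Eno1 in OPCs (0.0940 to 0.111 in ctl, 0.0716 to 0.0767 in dKO) and for Ldhb/Ldha in neurons (0.504 to 0.618 in ctl, 0.697 to 1.29 in dKO).

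The neighbouring pathways were read from 7 hand-written lists, in which 0 genes passed an adjusted p of 0.05 in either table (edgeR; counts at an unadjusted p under 0.05 follow). In OPCs these were 4 higher and 1 lower of 99 tested genes, below the 6.27% and 5.27% of all genes tested, so the genes named here are a description. Hk3, a hexokinase known from myeloid cells, was 1 of 22 other glucose transport and glycolysis genes (log2 fold change 1.31, standard error 0.39, unadjusted p = 0.00915, edgeR). Of 21 glycogen genes, Pgm2l1, which makes glucose 1,6-bisphosphate (log2 fold change 0.56, standard error 0.15, unadjusted p = 0.00599), and Ppp1r3c, a glycogen targeting subunit of protein phosphatase 1 (log2 fold change 0.73, standard error 0.28, unadjusted p = 0.0324), were higher, and Ppp1r3e, another such subunit (log2 fold change -1.13, standard error 0.35, unadjusted p = 0.0108), was lower. P4ha1, a collagen prolyl hydroxylase subunit, was the 1 gene of 16 hypoxia-inducible factor genes and targets (log2 fold change 0.34, standard error 0.12, unadjusted p = 0.0237). The other lists, of 11 monocarboxylate carriers and lactate receptor, 11 pyruvate fate genes, 10 NADH shuttle genes and 8 pentose phosphate genes, had 0.

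In neurons, 8 of 94 tested list genes were higher and 5 lower, against 4.96% and 4.04% of all genes tested, and the lower share is near that background. Of 12 other monocarboxylate carriers, Emb, the chaperone of Slc16a7 (log2 fold change 0.90, standard error 0.32, unadjusted p = 0.0217, edgeR), Slc16a14, an orphan carrier (log2 fold change 1.02, standard error 0.37, unadjusted p = 0.0243), and Slc16a8, a carrier known from retinal pigment epithelium and choroid plexus (log2 fold change 1.31, standard error 0.56, unadjusted p = 0.0455), were higher, and Slc16a4 was lower (log2 fold change -0.61, standard error 0.24, unadjusted p = 0.0314). Emb and Slc16a8 were highest in dKO replicate 1 (3502 and 239 normalized counts), the library with the most choroid plexus marker RNA, whose part was not tested. Of 18 other glucose transport and glycolysis genes, the transporter Slc2a12 (log2 fold change 0.75, standard error 0.26, unadjusted p = 0.0181) and Galm, galactose mutarotase (log2 fold change 0.86, standard error 0.35, unadjusted p = 0.0371), were higher, and the transporter Slc2a10 lower (log2 fold change -1.47, standard error 0.60, unadjusted p = 0.0375). Pdp2, a phosphatase that switches pyruvate dehydrogenase on, was higher (log2 fold change 0.49, standard error 0.18, unadjusted p = 0.0236), as was Slc25a12, the aspartate and glutamate carrier of the malate-aspartate shuttle (log2 fold change 0.37, standard error 0.12, unadjusted p = 0.0163), while Gpd2 of the glycerol phosphate shuttle was lower (log2 fold change -0.40, standard error 0.17, unadjusted p = 0.0495). Among 15 hypoxia-inducible factor genes and targets, Adm, adrenomedullin (log2 fold change -0.83, standard error 0.21, unadjusted p = 0.00425), and Ankrd37 (log2 fold change -0.57, standard error 0.24, unadjusted p = 0.0449) were lower and Egln1, an oxygen sensing prolyl hydroxylase (log2 fold change 0.45, standard error 0.17, unadjusted p = 0.0265), was higher. The 20 glycogen genes and 8 pentose phosphate genes had 0 at this threshold.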

How the data were processed

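RNA from cortical OPCs and neurons of ctl and dKO mice was sequenced in 3 libraries per group. The OPC table is of raw counts per gene, which the authors deposited with gene lengths and made with HISAT2 and featureCounts per their methods. TPM of OPCs was computed here from counts and lengths. The neuron table holds estimated counts and TPM of RefSeq transcripts as deposited, by a program not given in the sources used here, and both were summed per gene. Estimated counts were rounded. Of 17918 neuron genes, 17794 matched a symbol, and the others held 0.0441% of the counts. Fold changes and p-values that the authors deposited were not used.

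TMM-normalized counts had to average 10 or more for a gene to be tested. Each table was fitted on its own by the quasi-likelihood method of edgeR 4.0.16 in R 4.3.3, with dKO against ctl as the single coefficient, and p-values were adjusted by Benjamini and Hochberg with a threshold of 0.05. DESeq2 1.42.0, its size factors, no filter, a replicate block and each library left out were alternatives. The fit was tested on simulated counts in which 200 genes had a log2 fold change of 2. Of such genes tested, 177 of 193 were called in OPCs (17364 genes) and 167 of 193 in neurons (14352 genes). Of the unchanged genes, 13 were called in OPCs and 8 in neurons. P-values measure the spread between 3 pools of 2 mice. The members and lists were chosen with earlier results of these data known. Every member is described, and full statistics are given for members with an unadjusted p under 0.05 whose groups do not overlap and for the 3 highest per table, to which other members and the fourth monocarboxylate carrier were added after their values had been seen. Of each other list, up to 3 genes with the smallest unadjusted p under 0.05 are named.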

Additional observations from a re-analysis of the deposited data

Results flagged for a closer look

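Ldha and Pdk4 were noted because all 3 dKO libraries lay above all 3 ctl libraries in OPCs and below them in neurons, in normalized counts. On the TPM scale the groups overlapped for Pdk4 in OPCs (32.5 to 42.4 TPM in ctl, 38.8 to 54.8 TPM in dKO) and for Ldha in neurons (557 to 733 TPM in ctl, 453 to 611 TPM in dKO), and Pdk4 in OPCs was apart by less than 1 normalized count. The log2 fold change of Ldha, which makes lactate from pyruvate, was 0.52 in OPCs and -0.17 in neurons. That of Pdk4, which switches off pyruvate dehydrogenase, was 0.28 in OPCs and -0.53 in neurons. The difference between cell types was not tested, since the tables were counted in different ways, and 0 of these 4 values passed an adjusted p of 0.05 with edgeR or DESeq2. With edgeR, Ldha in OPCs was the 1 value with an unadjusted p under 0.05; with DESeq2, Pdk4 in neurons was also below it.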

How the results depend on the processing

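With DESeq2, 1 OPC member (Pfkl) and 1 neuron member (Pfkfb3) had an adjusted p under 0.05, against 0 and 0 with edgeR. At an unadjusted p under 0.05, 4 neuron members were lower with DESeq2 and 2 with edgeR. Of all 14352 neuron genes, 704 and 580 were lower at this threshold. Over all genes, DESeq2 called 293 in OPCs and 88 in neurons, and edgeR 1 and 0; edgeR called 87 in OPCs without the filter and 199 without dKO replicate 2. Without the filter the OPC log2 fold changes of Pfkfb3 and Mpc2 were 0.019 and 0.018, of the other sign. DESeq2 size factors changed no sign and no call of a member. The cause of these differences was not tested.

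Whether replicate numbers pair the libraries is not known. Deviations of same-numbered ctl and dKO libraries from their group means had correlations of -0.11, 0.15 and 0.11 in OPCs. In neurons these were 0.17, -0.08 and -0.08. With only 3 libraries per group, such values cannot decide whether the numbers pair libraries. With the replicate number as a block, 0 members had an adjusted p under 0.05 in either table. At an unadjusted p under 0.05, 6 OPC members were higher and 1 lower, against 1228 and 797 of all 17364 genes. In neurons 1 was higher and 2 lower, against 694 and 591 of all 14352 genes. The members' median was 0.20 and 0.10, and 27 OPC genes and 0 neuron genes passed an adjusted p of 0.05 over all.

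With each library left out in turn, 0 members had an adjusted p under 0.05 in either table. At an unadjusted p under 0.05, 2 to 9 members were higher and 0 to 2 lower in OPCs, and 0 to 2 and 1 to 5 in neurons. Of the 17240 to 17438 OPC genes tested, 630 to 1394 were higher and 476 to 898 lower at this threshold. Of the 14289 to 14384 neuron genes tested, these were 473 to 861 and 307 to 720. The median log2 fold change was 0.15 to 0.26 in OPCs and -0.013 to 0.15 in neurons, below 0 without dKO replicate 1. The sign held for 26 of 34 members in OPCs and 19 of 34 in neurons, and changed in at least 1 case for the others, whose log2 fold changes ran as follows in OPCs: Hk1 -0.021 to 0.28, Pfkfb3 -0.064 to 0.071, Eno2 -0.097 to 0.15, Slc16a3 -0.13 to 0.49, Slc16a7 -0.31 to 0.061, Mpc2 -0.085 to 0.12, Pdk2 -0.066 to 0.12, Gys1 -0.077 to 0.21. In neurons they were Slc2a3 -0.87 to 0.037, Hk1 -0.13 to 0.22, Hk2 -0.017 to 1.29, Gpi1 -0.068 to 0.13, Pfkfb2 -0.031 to 0.18, Aldoc -0.74 to 0.43, Tpi1 -0.14 to 0.16, Pgk1 -0.036 to 0.40, Eno2 -0.29 to 1.08, Pkm -0.13 to 0.050, Mpc1 -0.020 to 0.34, Mpc2 -0.027 to 0.41, Pdk1 -0.076 to 0.31, Pdk2 -0.11 to 0.17, Pygb -0.075 to 0.018, and 10 of these changed without dKO replicate 1. The log2 ratios whose difference changed sign were Ldhb/Ldha -0.40 to 0.022, Slc16a7/Slc16a1 -0.18 to 0.12, Pfkm/Pfkl -0.11 to 0.41 in OPCs and Aldoc/Aldoa -0.85 to 0.10, Eno2/Eno1 -0.34 to 0.64, Slc16a7/Slc16a1 -0.018 to 0.93, Mpc2/Mpc1 -0.070 to 0.083 in neurons; the other ratios kept theirs, and a pseudocount of 1 count changed no sign. The spread between libraries was 20.5% in OPCs and 27.7% in neurons, and the simulated test covered a log2 fold change of 2 only.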
